A study of Rattus norvegicus with 26 samples.

Results

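The genes described here encode phospholipases A2 and the enzymes that turn arachidonic acid into prostaglandins: Pla2g3, Pla2g4a, Pla2g6, Pla2g7, Pla2g12a, Pla2g15, Ptgs1, Ptgs2, Ptgds and Ptges. They are 10 of the 17910 genes listed in the deposited data, found by gene name with transcript rows summed by gene ID, and all 10 passed the filter (a mean normalized count of 5 or more), which 15595 genes passed in all. RNA was measured in the dentate gyrus (DG), the hippocampal region that holds the granule cells, of 26 male F344 rats aged about 6 months. The Veh group (n = 10) received vehicle, the Dox group (n = 8) received the anthracycline doxorubicin at 2 mg/kg by intraperitoneal injection, given weekly for 4 weeks, and the Dox + ABT group (n = 8) received the same course and 12 mg/kg of ABT-263 (navitoclax, an inhibitor of Bcl-2 family proteins) by oral gavage on 5 consecutive days every other week. The Veh rats belonged to an ongoing study of brain aging, and no group received ABT-263 alone. Each rat gave 1 library. The values are normalized counts that the authors scaled by the Median Ratio method.

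A phospholipase A2 cuts a fatty acid from the middle position of a membrane phospholipid, which leaves a lysophospholipid. When that fatty acid is arachidonic acid, the cyclooxygenases encoded by Ptgs1 and Ptgs2 convert it to prostaglandin H2, and terminal synthases then make single prostaglandins, such as prostaglandin D2 by Ptgds and prostaglandin E2 by Ptges. In brain, Ptgs2 is expressed in excitatory neurons and follows synaptic activity, while Ptgds is best known from leptomeninges, choroid plexus and oligodendrocytes.

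Pla2g3 was chosen by its normalized counts in the Dox rats, of which some were high, so its comparisons with the Dox group are a description with no test. The other 9 genes were included as its relatives and as the enzymes downstream of it. They were tested, with p under 0.01 as the threshold the study used, by limma on log2(normalized count + 1) over all 26 rats, and Benjamini-Hochberg adjusted p-values over the 15595 genes are given beside it. A difference on this scale understates the change of a low gene, and bulk tissue cannot separate fewer cells of a type from less RNA per cell. In the comparison of Dox with Veh, 448 of the tested genes passed (2.87%: 1.02% higher and 1.85% lower), in that of Dox + ABT with Veh 1222 passed (7.84%: 3.89% higher and 3.95% lower), and in that of Dox with Dox + ABT 629 passed (4.03%). These counts depend on the libraries. For Dox against Veh 181 genes passed without the rats Dox 1 and Dox 2, and leaving out 1 rat gave 266 (without Dox 1) to 707 (without Veh 11), with a count also lower by over 1.5 times without Dox 2. For Dox + ABT against Veh 214 passed with a term for the kind of library, described in the next paragraph, and leaving out 1 rat gave 695 (without Dox + ABT 5) to 2130 (without Veh 11). That count was also over 1.5 times lower without Dox + ABT 3, Dox + ABT 6, Veh 1, Veh 2 or Veh 9, and over 1.5 times higher without Veh 10. For Dox against Dox + ABT leaving out 1 rat gave 419 (without Dox + ABT 5) to 787 (without Dox 5).

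Among the libraries, 2 features touched these genes. The rats Dox 1 and Dox 2 stood apart from the other 24 in several of them, so values are given with and without these rats, a choice made after the data were seen. The 2 libraries were not copies of each other, since 0 pairs of libraries held identical values and the correlation of Dox 1 with Dox 2 (0.982) lay within the range over all pairs (0.942 to 0.987). Their deviations from the group mean were nonetheless alike, with a correlation of 0.448. Between rats of different groups the median was 0.00474 for differently numbered pairs, and the highest same-numbered pair had 0.299. Separately, the libraries of every group fell into 2 kinds along the main axis of variation that remained after the group means were taken out, with 4 Veh, 5 Dox (Dox 1 and Dox 2 among them) and 7 Dox + ABT rats of the first kind and 6 Veh, 3 Dox and 1 Dox + ABT rats of the second. Ribosomal protein genes made up at most 1.09% of the normalized counts in each library of the first kind and at least 1.16% in each of the second. Their share averaged 1.28% ± 0.408 (SD, n = 10) for Veh, 1.10% ± 0.330 (SD, n = 8) for Dox and 0.955% ± 0.102 (SD, n = 8) for Dox + ABT, and its part in the results was not tested. Estimated depth ran from 10166100 to 24326700 reads. The granule cell markers fixed as a check of the tissue label summed to between 16008 and 23190 normalized counts in the 26 rats, with C1ql2 and Sema5a the most abundant.

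The promoters of Ptges, Ptgds and Ptgs2 are shown because Ptges and Ptgds were highest in the same 2 rats and Ptgs2 was not. Each line holds the 250 bases before the annotated start of transcription in RefSeq on the rat assembly GRCr8, written 5′ to 3′ on the strand of the gene, at chr3:34586988-34587237 (minus strand) for Ptges, chr3:28682979-28683228 (minus strand) for Ptgds and chr13:64713813-64714062 (plus strand) for Ptgs2. Capitals mark matches, on either strand, to the letters searched.
Ptges: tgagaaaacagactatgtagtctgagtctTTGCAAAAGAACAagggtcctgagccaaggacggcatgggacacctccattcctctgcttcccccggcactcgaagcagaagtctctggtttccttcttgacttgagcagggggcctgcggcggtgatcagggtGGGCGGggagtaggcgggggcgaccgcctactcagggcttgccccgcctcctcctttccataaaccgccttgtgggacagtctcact
Ptgds: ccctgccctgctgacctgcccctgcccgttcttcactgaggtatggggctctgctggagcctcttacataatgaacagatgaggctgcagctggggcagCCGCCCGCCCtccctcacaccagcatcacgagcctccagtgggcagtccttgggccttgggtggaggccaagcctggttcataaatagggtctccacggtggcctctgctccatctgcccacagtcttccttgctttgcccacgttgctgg
Ptgs2: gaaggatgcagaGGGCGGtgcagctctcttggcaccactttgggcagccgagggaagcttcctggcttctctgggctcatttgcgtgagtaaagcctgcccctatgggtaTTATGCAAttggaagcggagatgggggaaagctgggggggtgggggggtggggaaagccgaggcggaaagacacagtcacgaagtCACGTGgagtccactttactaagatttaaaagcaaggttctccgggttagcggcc
The search covered the TATA box, written TATAAA. It also covered GGGCGG, known as the GC box, and CACGTG, known as the E-box. Further letters were TGACGTCA for the cAMP response element, TTGCNNAA for C/EBP factors and TGTTCT for an arm of the glucocorticoid response element. The Ptges promoter held a GC box and, overlapping each other, TTGCNNAA and TGTTCT. The Ptgds promoter held 2 overlapping GC boxes. The Ptgs2 promoter held a GC box, TTGCNNAA and CACGTG. Pla2g12a was also highest in those 2 rats, and its promoter, which is not printed, held CACGTG and none of the other letters searched. Of 33469 rat promoters of this length, 30.5% held GGGCGG, 17.5% held TGTTCT, 12.9% held TATAAA, 9.22% held TTGCNNAA, 5.59% held CACGTG and 1.59% held TGACGTCA. A match describes these letters and is not a site of binding. A promoter was at hand for 9 of the 10 genes, Pla2g3 being the exception.

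Pla2g3, a secreted phospholipase A2 of group III, was higher in Dox than in Veh in every rat relative to the Veh median, and by far the most in 2 rats. In the Veh group it ran from 4.29 to 33.6 normalized counts with a median of 12.5. In the Dox group it was 449 in Dox 1 and 360 in Dox 2 and between 27.7 and 47.3 in the other 6 rats, whose mean was 33.0 ± 7.39 (SD, n = 6). Dox 1 and Dox 2 were therefore 9.48 and 7.61 times as high as the highest other rat, and of all tested genes 44 (0.282%) had both rats more than 2 times above every other rat. The groups overlapped, since 1 Veh rat (Veh 6, at 33.6) reached the range of the Dox rats, and 4 of 8 Dox rats were above every Veh rat. The mean of the Dox group was 9.05 times that of Veh with all rats and 2.37 times without Dox 1 and Dox 2, which on the log2 scale was 2.22 and 1.32. Among libraries of the first kind, which hold Dox 1 and Dox 2, the difference was 2.30 with those rats and 0.83 without them, and among those of the second kind it was 1.66.

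In the Dox + ABT group, whose values the choice of Pla2g3 did not use, the gene ran from 13.7 to 34.2 with a median of 21.1. The Veh values may have entered that choice, since a rise in Dox is seen against them. The p-values against Veh below are therefore not wholly free of it. All 8 Dox + ABT rats were above the Veh median and 1 was above every Veh rat. The difference from Veh was 0.68 on the log2 scale (95% interval -0.27 to 1.62) and did not pass (limma p = 0.155, adjusted p = 0.386). Without Dox 1 and Dox 2, which widen the shared estimate of the spread, the same difference had p = 0.0136. A term for the kind of library brought it to 0.27 (p = 0.574) over all 26 rats and to 0.50 (p = 0.0763) over the 24. Between the 2 treated groups, the difference of Dox from Dox + ABT was 1.54 with all rats and 0.64 without Dox 1 and Dox 2, a description only.

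**Figure D1:**
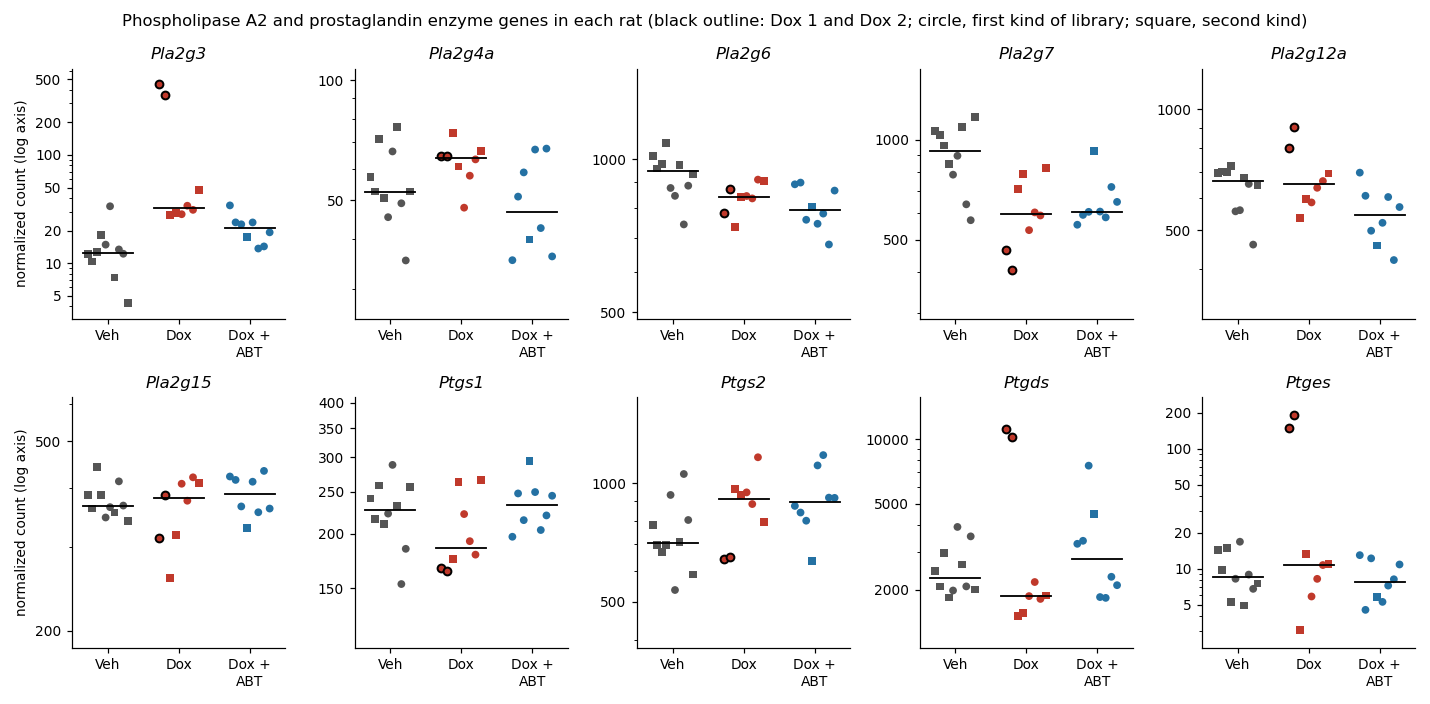
Normalized counts of the 10 genes in each rat on log axes, by group (Veh, Dox, Dox + ABT), with the group median as a line, circles for the first and squares for the second kind of library and a black outline around Dox 1 and Dox 2. The outlined rats lie far above all others in Pla2g3 and Ptges, are the highest in Ptgds and Pla2g12a and are the lowest in Pla2g7.

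Of the other phospholipases, Pla2g7, the secreted platelet-activating factor acetylhydrolase, fell in both treated groups. It ran from 572 to 1172 normalized counts in Veh with a median of 928, from 404 to 823 in Dox with a median of 597, and from 554 to 924 in Dox + ABT with a median of 607. All 8 Dox rats and all 8 Dox + ABT rats lay below the Veh median, and 3 Dox rats and 1 Dox + ABT rat lay below every Veh rat. The Dox group was lower than Veh by a log2 difference of -0.56 (SE 0.14, 95% interval -0.86 to -0.27, limma p = 0.000501, adjusted p = 0.14), and the ratio of the means was 0.678. The Dox + ABT group was lower than Veh by -0.45 (SE 0.14, p = 0.00379, adjusted p = 0.11). Dox and Dox + ABT differed by -0.11 (95% interval -0.42 to 0.20, p = 0.468).

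Dox 1 (465) and Dox 2 (404) were the lowest of the 26 rats in Pla2g7, and without them the difference of Dox from Veh was -0.41 (limma p = 0.00775, adjusted p = 0.772). Within the first kind of library the mean was 723 ± 145 (SD, n = 4) in Veh and 519 ± 84.9 (SD, n = 5) in Dox. Their log2 difference was -0.47 (limma p = 0.00228). Within the second kind it was 1029 ± 113 (SD, n = 6) in Veh and 773 ± 57.8 (SD, n = 3) in Dox. Here the log2 difference was -0.41 (limma p = 0.00322). With both limits at once, the 3 remaining Dox rats of the first kind differed from Veh by -0.31 (limma p = 0.0255), which did not pass. In Dox + ABT the mean of the first kind was 616 ± 54.2 (SD, n = 7). The fall in Dox + ABT did not pass within that kind (-0.21, limma p = 0.106) or with a term for the kind of library (-0.19, limma p = 0.0583).

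Microglia markers are given beside Pla2g7. Their sum over 11 genes, led by Csf1r and C1qa, ran from 4899 to 8662 in Veh, from 4804 to 7008 in Dox and from 4713 to 7708 in Dox + ABT. Of the 11, 5 were lower and 0 higher in Dox than in Veh at p under 0.01, with a median log2 difference of -0.30, and 0 passed without Dox 1 and Dox 2 (3 at p under 0.05). With a term for the kind of library 3 were lower (median -0.26), and 2 were when those 2 rats were left out as well. In Dox + ABT 2 were lower than in Veh and all 11 differences were negative, with a median of -0.28, while with a term for the kind of library 0 passed (1 at p under 0.05) and the median was -0.11. In Dox 1 and Dox 2 the markers summed to 6057 and 6698, within the range of the Veh rats, but single markers in these 2 rats went both ways. Cx3cr1 (151 and 156) and Tmem119 (169 and 195) were lower, and C1qb (1266 and 1506) and C1qc (1355 and 1481) higher, than in the other 24 rats, all 4 named after their values were seen. The part of microglia in the result for Pla2g7 was not tested.

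**Figure D2:**
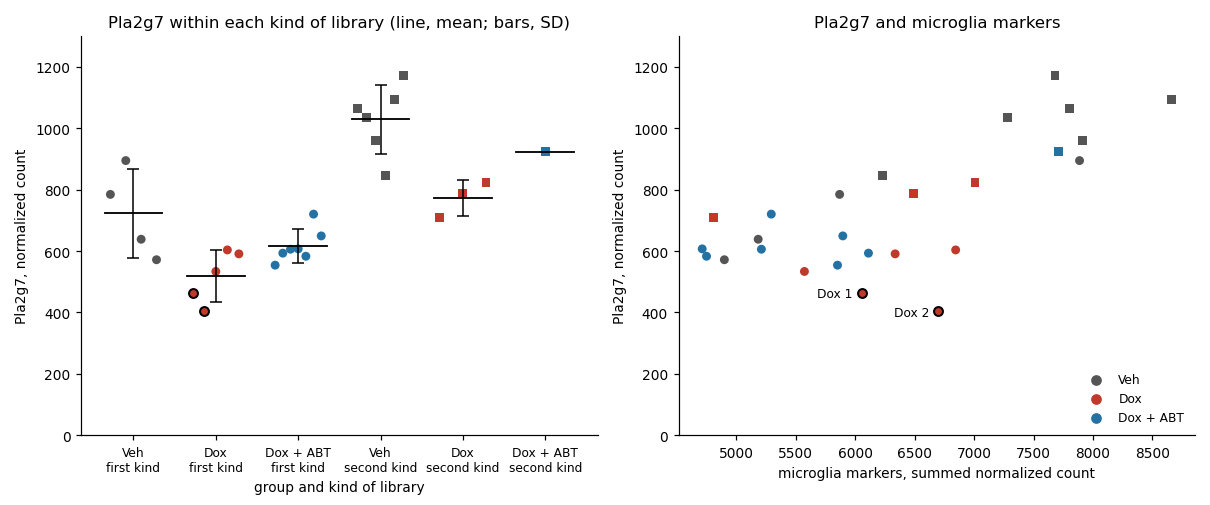
Left, Pla2g7 normalized counts by group and kind of library, 1 point per rat, with the mean as a line and bars of 1 SD; right, Pla2g7 against the summed normalized counts of 11 microglia markers in the same rats. The Dox mean is below the Veh mean in both kinds, and Dox 1 and Dox 2 have the lowest Pla2g7 without the lowest marker sums.

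Pla2g6, the calcium-independent group VI enzyme, was lower than Veh in the Dox + ABT group. It ran from 744 to 1077 in Veh with a median of 948, from 735 to 912 in Dox with a median of 844, and from 680 to 900 in Dox + ABT with a median of 793. All 8 rats of each treated group lay below the Veh median, though only 1 of each lay below every Veh rat. The log2 difference from Veh was -0.21 in Dox + ABT (SE 0.07, limma p = 0.00714, adjusted p = 0.118) and -0.14 in Dox (SE 0.07, p = 0.0638). The result for Dox + ABT did not hold with a term for the kind of library (-0.16, p = 0.036) or within the first kind (-0.07, p = 0.465). Leaving out any of 11 single rats also left it short of the threshold.

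Pla2g12a, a secreted enzyme of group XII, was highest in Dox 2 (902) and Dox 1 (802), against 421 to 722 in the other 24 rats. Its medians were 663 (Veh), 650 (Dox) and 546 (Dox + ABT). The log2 difference of Dox from Veh was 0.08 (95% interval -0.14 to 0.30, limma p = 0.445), and that of Dox + ABT from Veh was -0.22 (p = 0.0487). Dox differed from Dox + ABT by 0.30 (SE 0.11, p = 0.0119), short of the threshold, and by 0.19 without Dox 1 and Dox 2 (p = 0.0998). The difference of Dox from Veh was 0.36 among libraries of the first kind and -0.18 among those of the second, and the kinds differed in it by -0.54 (95% interval -0.93 to -0.15, limma interaction p = 0.00823, adjusted p = 0.12), which without Dox 1 and Dox 2 was -0.37 (p = 0.0542). The gene had 2 transcript rows, and only the higher row held the excess in Dox 1 (722) and Dox 2 (842). The lower row went the other way, with 79.2 in Dox 1 and 60.1 in Dox 2 against a Veh mean of 126.

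The cytosolic Pla2g4a, the phospholipase with the strongest preference for arachidonic acid, was a low gene with medians of 52.6 (Veh), 63.9 (Dox) and 46.8 (Dox + ABT). All 8 Dox rats lay above the Dox + ABT median, with a log2 difference of 0.35 (95% interval 0.02 to 0.68, limma p = 0.0363) that did not pass, and Dox differed from Veh by 0.18 (95% interval -0.13 to 0.50, p = 0.238). Dox 1 and Dox 2 both had 64.5, in the middle of their group. The lysosomal Pla2g15 had medians of 365 (Veh), 381 (Dox) and 388 (Dox + ABT), and its differences ran from -0.11 to 0.04 with no p under 0.05.

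The cyclooxygenase genes were not high in the 2 rats with the highest Pla2g3. Ptgs2, the inducible cyclooxygenase, ran from 536 to 1055 in Veh with a median of 704, from 642 to 1164 in Dox with a median of 910, and from 635 to 1178 in Dox + ABT with a median of 897. The rats with the highest Pla2g3 had low Ptgs2, at 642 in Dox 1 and 651 in Dox 2, whereas the other 6 Dox rats had 796 to 1164 and all lay above the Veh median. The log2 difference of Dox from Veh was 0.23 (SE 0.13, limma p = 0.0943) with all rats and 0.36 (p = 0.0102, adjusted p = 0.845) without those 2. Without the 2 rats and with a term for the kind of library it was 0.33 (p = 0.00753). Dox + ABT differed from Veh by 0.29 (p = 0.0352), with 7 of 8 rats above the Veh median, and Dox and Dox + ABT differed by -0.06 (95% interval -0.34 to 0.22, p = 0.652). Ptgs1, the constitutive cyclooxygenase, had medians of 227 (Veh), 186 (Dox) and 232 (Dox + ABT). Dox 1 (167) and Dox 2 (164) were among the 3 lowest rats. The difference in Ptgs1 was -0.16 between Dox and Veh (95% interval -0.40 to 0.09, p = 0.198) and -0.21 between Dox and Dox + ABT (p = 0.0986).

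The terminal synthase genes Ptges and Ptgds were high in the 2 rats with high Pla2g3. Ptges, the inducible microsomal prostaglandin E synthase, was 149 in Dox 1 and 191 in Dox 2, and between 3.07 and 16.8 in the other 24 rats, with a median of 8.24. The 2 rats were 8.87 and 11.4 times as high as the highest other rat. The other 6 Dox rats had a mean of 8.68 ± 3.74 (SD, n = 6), against 9.73 ± 4.17 (SD, n = 10) in Veh and 8.38 ± 3.25 (SD, n = 8) in Dox + ABT. The groups thus differed in Ptges by a log2 difference of 0.90 (95% interval -0.20 to 1.99, limma p = 0.107) for Dox against Veh with all rats and by -0.17 (95% interval -0.80 to 0.47, p = 0.595) without those 2.

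Ptgds, which makes prostaglandin D2 and also carries lipophilic ligands as a lipocalin, was the most abundant of the 10 in normalized counts, a scale that does not allow for gene length. It was 11135 in Dox 1 and 10209 in Dox 2, and 1508 to 2171 in the other 6 Dox rats. In Veh it ran from 1842 to 3911 with a median of 2258, and in Dox + ABT from 1833 to 7526 with a median of 2781. The Dox group was thus split, with 2 rats above every rat of the other groups and 6 below both other medians, 3 of them below every Veh rat. The log2 difference of Dox from Veh was 0.18 (95% interval -0.53 to 0.89, limma p = 0.607) with all rats and -0.46 (95% interval -0.94 to 0.01, p = 0.0554) without Dox 1 and Dox 2. Leaving out Dox 1 alone gave -0.10 and Dox 2 alone -0.09. The 6 other Dox rats were lower than Dox + ABT by -0.73 (SE 0.24, limma p = 0.00538, adjusted p = 0.306), where with all 8 the difference was -0.09 (p = 0.81). Dox 1 and Dox 2, the 2 highest rats in Ptgds, were left out after their values were seen, so the p-values without them are not fair tests. The highest Dox + ABT value (7526) was that of Dox + ABT 3 alone.

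Leptomeninges and choroid plexus markers are given beside Ptgds. The leptomeninges markers, 14 genes led by Igfbp2 and Igf2, summed to 586 to 965 in Veh, 574 to 795 in Dox and 635 to 1365 in Dox + ABT. The highest sums were those of Dox + ABT 3 (1365) and Dox + ABT 4 (1074), the rats with the highest Ptgds outside the Dox group (7526 and 4480), while Dox 1 (667) and Dox 2 (701) were within the Veh range. Of 13 tested, 3 were lower in Dox than in Veh (1 without Dox 1 and Dox 2) and 4 lower in Dox than in Dox + ABT (3 without them), with 0 higher. The choroid plexus markers, led by Calml4 and Ttr, summed to 264 to 390 in Veh, 208 to 655 in Dox and 260 to 640 in Dox + ABT, with 463 in Dox 1 and 479 in Dox 2, both above every Veh rat. In these 2 rats Calml4 (240 and 268) lay within its Veh range (133 to 275) and Ttr (121 and 96.2) above its own (6.22 to 94.5). Aqp1, named after its values were seen, reached 230 in Dox against at most 27.1 in Veh and 22.1 in Dox + ABT. Of 6 choroid plexus markers tested, 1 was lower in Dox than in Dox + ABT (2 without Dox 1 and Dox 2, where the median log2 difference was -1.02) and 0 passed otherwise (0 at p under 0.05 for either group against Veh). Of the 14 oligodendrocyte markers, led by Mbp, 5 were lower in Dox than in Veh (2 without Dox 1 and Dox 2) and 5 lower in Dox than in Dox + ABT (4 without them). In Dox + ABT against Veh 1 oligodendrocyte marker was higher (0 with a term for the kind of library). The part of these cells in the values of Ptgds was not tested.

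**Figure D3:**
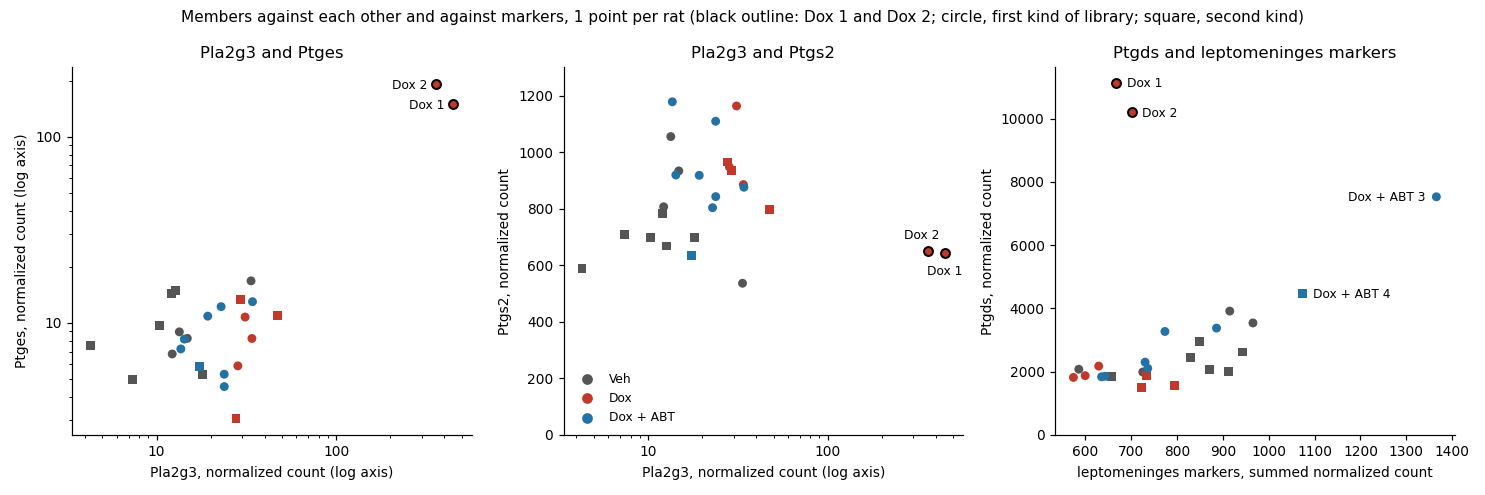
Each rat's normalized counts of Pla2g3 against Ptges (both axes log), of Pla2g3 (log axis) against Ptgs2, and of Ptgds against the summed counts of 14 leptomeninges markers, coloured by group, with circles for the first and squares for the second kind of library. Dox 1 and Dox 2 are high in both genes on the left and low in Ptgs2 in the middle, and on the right they are high in Ptgds with leptomeninges sums within the Veh range.

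Counted together, Dox 1 and Dox 2 were both above every other rat in 3 of the 9 genes other than Pla2g3 (Pla2g12a, Ptgds and Ptges), and 1002 of all tested genes (6.43%) showed this. They were both below every other rat in 1 (Pla2g7), where 734 genes did (4.71%). At p under 0.01, 1 of the 9 tested genes was lower and 0 higher in Dox than in Veh (Pla2g7), where 1.85% of all tested genes were lower. In Dox + ABT 2 were lower and 0 higher than in Veh (Pla2g7 and Pla2g6), where 3.95% of all tested genes were lower, and with a term for the kind of library 0 of the 9 passed, where the count over all genes fell to 214. By limma 0 of 9 differed between Dox and Dox + ABT, 2 had p under 0.05 (Pla2g12a and Pla2g4a), where 12.7% of all tested genes did, and 0 passed in the exact permutation test. None of these calls had an adjusted p under 0.05.

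**Figure D4:**
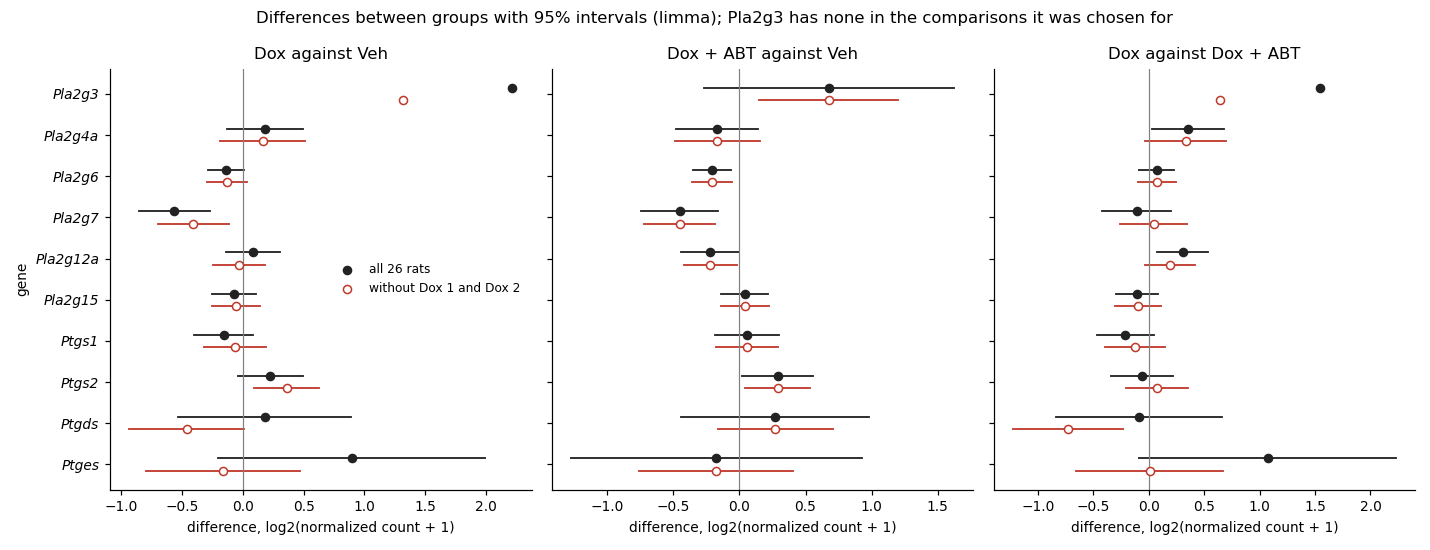
Log2 differences between groups for the 10 genes with 95% intervals from limma, for Dox against Veh, Dox + ABT against Veh and Dox against Dox + ABT, with all 26 rats (filled) and without Dox 1 and Dox 2 (open); Pla2g3 has no interval where the Dox rats chose it. Pla2g7 lies below 0 against Veh in both treated groups with either set of rats, while in Dox against Veh Ptgds, Ptges and Pla2g12a cross from above to below 0 when the 2 rats are left out.

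Whether the other genes were higher in the rats with higher Pla2g3 was asked over the 24 rats without Dox 1 and Dox 2, since those 2 form a cluster of their own. Each value entered as its distance from its own group's mean. By Pearson's r the closest relation was with Ptges (r = 0.37, permutation p = 0.0758), whose Spearman's rho was 0.29 (permutation p = 0.189). Ptgds had r = 0.32 (permutation p = 0.114) and rho = 0.30 (permutation p = 0.193). By rank the closest were Pla2g15, with rho = 0.40 (permutation p = 0.05004) and r = 0.28 (permutation p = 0.104), and Pla2g7, which ran the other way with rho = -0.39 (permutation p = 0.0752) and r = -0.32 (permutation p = 0.192). The 5 other genes had r between -0.11 and 0.11. Of the 9 relations 0 had an adjusted p under 0.05, and the smallest adjusted p was 0.343 for r and 0.338 for rho. Within the 9 Veh and Dox libraries of the second kind, Pla2g12a was related to Pla2g3 (r = 0.71, permutation p = 0.00104, adjusted p = 0.00936 over the 9 relations there). Over the 24 rats the same relation had r = 0.11 (permutation p = 0.643). Within the first kind no relation passed.

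Over all 26 rats, the genes whose distances from their own group's mean were most like those of Pla2g3, among 12078 with a mean normalized count of 50 or more, were LOC102555457 (r = 0.88), Mt1 (r = 0.86), Fkbp5 (r = 0.86), Ptp4a3 (r = 0.85) and Nudt6 (r = 0.85). Dox 1 and Dox 2 carried much of this likeness, which over the other 24 rats fell to r = 0.52, 0.29, 0.29, 0.50 and 0.55. Mt1, a metallothionein, was 1492 and 1643 in Dox 1 and Dox 2 against 69.8 to 225 elsewhere, and Fkbp5, a co-chaperone of the glucocorticoid receptor, was 4011 and 3998 against 1537 to 2278. The genes most like Ptgds were LOC102555457 (r = 0.87), Cry2 (0.86), Tnfrsf11a (0.86), Nbl1 (0.85) and Cpxm1 (0.83), and over 24 rats they had r = 0.58, 0.57, 0.73, 0.67 and 0.63. Those most like Ptgs2 were Pgm2l1 (r = 0.87), Cdh9 (0.87), Erc1 (0.86), Bmp3 (0.83) and Jph1 (0.82), with r = 0.85, 0.85, 0.84, 0.78 and 0.77 over 24 rats. Each value describes the deviations of the same rats, whose libraries differ in kind and depth, and carries no test.

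Other genes of the pathway were counted list by list. At p under 0.05, the share of all tested genes was 10.2% for Dox against Veh, 22.5% for Dox + ABT against Veh and 12.7% for Dox against Dox + ABT. Of 17 other phospholipases A2 and regulators, 0 passed in Dox against Veh by limma (2 at p under 0.05) and 0 in Dox against Dox + ABT (1 at p under 0.05), with median log2 differences of 0.01 and -0.02. In Dox + ABT against Veh 5 had p under 0.05 and 1 was higher at p under 0.01, Pla2g4b, a cytosolic phospholipase A2 with a mean of 127 ± 54.1 (SD, n = 10) in Veh and 200 ± 45.9 (SD, n = 8) in Dox + ABT. Pla2g4b differed by 0.76 on the log2 scale (limma p = 0.00794), and with a term for the kind of library it had p = 0.11. Of 12 other genes of prostanoid synthesis, transport and breakdown 0 passed in any comparison by limma, and 2, 5 and 1 had p under 0.05 in the 3 comparisons in the order above. The smallest p-values among them were those of Zadh2, a prostaglandin reductase, for Dox + ABT against Veh (0.29, p = 0.0105), and of Prxl2b, a prostamide and prostaglandin F synthase, for the same comparison (-0.60, p = 0.0119). Of 6 tested prostanoid receptors 0 passed and 0 had p under 0.05. The smallest p-values belonged to the prostaglandin E2 receptors Ptger2 (Dox + ABT against Veh, -0.36, p = 0.0667) and Ptger1 (Dox against Dox + ABT, 0.36, p = 0.0671). With a term for the kind of library Ptger1 was higher in Dox than in Dox + ABT (0.52, p = 0.00116), and without Dox 1 and Dox 2 as well 0 receptors passed (2 at p under 0.05).

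Among 13 lipoxygenase, leukotriene and epoxide genes, 0 passed in Dox against Veh or in Dox against Dox + ABT by limma (3 at p under 0.05 in each, and 1 past the threshold in Dox against Veh with a term for the kind of library, Alox15), and 1 was lower in Dox + ABT than in Veh, the epoxide hydrolase gene Ephx1 (-0.35, p = 0.00668, and 0.0813 with a term for the kind of library). Alox15, the arachidonate 15-lipoxygenase, was named after its values were seen, so its values are given with no test of their own. It was 3158 in Dox 5 and 5706 in Dox 7, 232 in Dox 1 and 187 in Dox 2, and 7.44 to 48.0 in the remaining rats. The other 4 Dox rats thus lay within the range of the Veh and Dox + ABT rats. The red cell markers, led by Hbb and Hba-a1, were highest in the same 2 rats, with sums of 96554 in Dox 5 and 135506 in Dox 7 against 2396 to 30189 elsewhere. The part of red cells in the level of Alox15 was not tested.

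Of 24 genes that release or reacylate arachidonic acid by other routes, 1 was lower in Dox than in Veh, Abhd4, a lysophospholipase of the anandamide pathway. Its mean was 2023 ± 424 (SD, n = 10) in Veh and 1527 ± 179 (SD, n = 8) in Dox. The log2 difference was -0.38 (limma p = 0.00285, and 0.018 without Dox 1 and Dox 2). In Dox + ABT against Veh, Abhd4 (-0.43, p = 0.00111) and the monoacylglycerol lipase gene Mgll (-0.35, p = 0.00333) were lower and the acyltransferase gene Lpcat2 was higher (0.48, p = 0.00865), and 7 of the 24 had p under 0.05. With a term for the kind of library those 3 had p = 0.0153, 0.0406 and 0.0914. With that term Abhd4 (-0.30, p = 0.00291) and the fatty acid binding protein gene Fabp5 (-0.34, p = 0.00678) were lower in Dox than in Veh. By limma 0 passed in Dox against Dox + ABT, and 4 had p under 0.05. With the term 1 was higher in Dox, the acyltransferase gene Mboat7 (2.98, p = 0.00888), and 7 had p under 0.05, and without Dox 1 and Dox 2 and with no such term 1 was higher, Mgll (0.38, p = 0.00339). Mboat7 had a normalized count under 1 in some rats of every group.

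Lysophospholipids are the other product of a phospholipase A2, and 2 of 12 genes of their signalling were lower in Dox than in Veh, with a median log2 difference of -0.25 over the 12 against 0.00 over all tested genes. Enpp2 encodes autotaxin, the secreted enzyme that makes lysophosphatidic acid. It ran from 353 to 783 in Veh with a median of 460, from 217 to 386 in Dox with a median of 336, and from 405 to 609 in Dox + ABT with a median of 485. Enpp2 was lower in Dox than in Veh by -0.55 (SE 0.13, limma p = 0.000283, adjusted p = 0.114) and lower than in Dox + ABT by -0.65 (SE 0.14, p = 7.58e-05, adjusted p = 0.0675). Without Dox 1 and Dox 2 these differences were -0.46 (p = 0.00247) and -0.56 (p = 0.00063). S1pr1, a sphingosine 1-phosphate receptor, was lower than Veh in Dox (-0.22, p = 0.00965, and 0.0558 without Dox 1 and Dox 2) and in Dox + ABT (-0.23, p = 0.00672, and 0.0487 with a term for the kind of library). Enpp2 is also expressed by oligodendrocytes and choroid plexus, whose marker values stand with Ptgds above, and their part was not tested.

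Immediate early genes were counted because Ptgs2 is induced by neuronal activity. Npas4 had a mean of 34.1 ± 9.35 (SD, n = 10) in Veh and 16.8 ± 11.9 (SD, n = 8) in Dox. Of the 20 genes, Npas4 and Arc were lower in Dox than in Veh, by -1.16 (limma p = 0.000828) and -0.76 (p = 0.00883, 0.131 without Dox 1 and Dox 2, and 0.0156 with a term for the kind of library), and 0 were higher. In Dox + ABT against Veh 1 was lower, Egr3 (-0.37, p = 0.0012), and with the kind term Junb was lower as well (-0.39, p = 0.00584). In Dox against Dox + ABT, Npas4 (-1.20, p = 0.000991, and 0.0272 without Dox 1 and Dox 2 and with the kind term) and Nr4a2 (-0.64, p = 0.0029, and 0.0227 without Dox 1 and Dox 2) were lower and Egr3 was higher (0.34, p = 0.0037).

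The remaining markers served as a check of other cells in the tissue. The endothelial sum, led by Slc2a1 and Cldn5, ran from 2288 to 6242 normalized counts over the 26 rats. Of 10 endothelial genes, 1 was higher and 2 lower in Dox than in Veh. Without Dox 1 and Dox 2, 1 was higher and 0 lower, and with a term for the kind of library as well, 1 was higher and 1 lower. In Dox + ABT against Veh 0 of 10 passed by limma (1 at p under 0.05). The astrocyte sum, led by Gfap and S100b, ran from 61895 to 105888, with 3 of 11 lower in Dox and 1 of 11 lower in Dox + ABT than in Veh (0 with a term for the kind of library). The sum of CA field and mossy cell markers, led by Wfs1 and Grik4, ran from 5680 to 25907, with 0 of 12 passing by limma against Veh in Dox (1 at p under 0.05) or in Dox + ABT (0 at p under 0.05). Of the 7 red cell markers 0 passed in Dox or in Dox + ABT against Veh (3 and 0 at p under 0.05), though all 7 differences for Dox were positive, with a median of 1.04. With a term for the kind of library, 7 of 7 were higher in Dox than in Veh with a median of 1.56, and without Dox 1 and Dox 2 as well, 2 of 7 were. Among the granule cell markers 0 of 10 passed in Dox (0 at p under 0.05) and 2 of 10 were lower in Dox + ABT than in Veh (1 with a term for the kind of library, and 0 without Dox 1 and Dox 2 as well).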

How the data were processed

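Poly(A) RNA from the DG of 26 rats was sequenced on an Ion Proton, and the authors aligned the reads to rn6 with STAR 2.5.3a in Partek Flow and scaled gene counts by Median Ratio. The deposited values are this normalized signal, per transcript row, and not whole counts, so limma replaced the DESeq2 of the study. Groups were taken from the sample labels. The 24012 rows were summed by gene ID, genes with a mean under 5 were left out, and log2(value + 1) was fitted in limma 3.58.1 (R 4.3.3) with a variance trend, two-sided. The fit was checked on simulated data. With 9 relations of Pla2g3, 100000 permutations within groups (seed 1) were drawn. Replicate numbers are numbers within a group: of 16 same-numbered pairs, 6 had correlated deviations over 0.1, so rats were not paired. The genes, the 7 pathway lists and the 9 marker lists were chosen with earlier results of these data known. Named were all 10 genes, list members with p under 0.01 or else the 2 smallest p-values, the 2 most abundant markers of each list and the 5 genes most like Pla2g3, Ptgds and Ptgs2. Of the markers this rule selects, 1 is not reported here. Alternatives covered pseudocounts, filters, scaling, array weights, kinds of library, exact permutation, transcript rows and left-out rats; leaving out Dox 1 and Dox 2 was chosen after seeing the data. Replicates are separate rats.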

Additional observations from a re-analysis of the deposited data

Results flagged for a closer look

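In 30 groups of samples tested by Dixon's criterion, which chance meets in about 1 group in 20, 3 single rats lay far from the others of their group. Pla2g3 was 33.6 normalized counts in Veh 6, above the other Veh rats (4.29 to 18.1). Pla2g7 was 924 in Dox + ABT 4, the only Dox + ABT rat of the second kind of library, against 554 to 720 in the others. Ptgds was 7526 in Dox + ABT 3, the rat with the highest sum of leptomeninges markers (1365). Dox 1 and Dox 2 lie beside each other and so were not picked out by that criterion.

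The change of Pla2g12a between Veh and Dox differed between the 2 kinds of library by -0.54 on the log2 scale (limma interaction p = 0.00823, adjusted p = 0.12), with 0.36 in the first kind and -0.18 in the second. Both rats with the highest values, Dox 1 and Dox 2, are of the first kind, and without them the difference was -0.37 (p = 0.0542).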

How the results depend on the processing

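Of 1361 values of single genes and relations under alternatives, 1283 kept their direction and side of the threshold, 22 lost the threshold, 17 reached it and 39 changed sign, 1 of these past the threshold (Ptgds in the second kind of library). Pla2g7 stayed below Veh in Dox at p under 0.01 under all 19 settings (the reported one among them) and in every fit without 1 rat, but not among the 3 Dox rats of the first kind left without Dox 1 and Dox 2. The cause of the changes below was not tested.

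The count of tested members passing in Dox against Veh (1) became 2 with array weights, 3 in the second kind of library and 2 without Dox 1 and Dox 2 with the kind as a covariate, and was 1 to 1 without single rats. In Dox + ABT against Veh (2) it was 4 with array weights, 1 with the 2 groups alone, with quantile normalization, with the highest transcript row and by exact permutation, 0 with the kind as a covariate, in the first kind and without Dox 1 and Dox 2 with the kind as a covariate, and 1 to 2 without single rats. In Dox against Dox + ABT (0) it was 1 with array weights and without Dox 1 and Dox 2, with or without the kind, and 0 to 1 without single rats. The call without Dox 1 and Dox 2 was Ptgds, whose 2 highest rats were the ones left out, so it is not a fair test. Array weights called 3150, 5297 and 1612 of all genes in the 3 comparisons, against 448, 1222 and 629. The difference between kinds (1, Pla2g12a) was 0 without Dox 1 and Dox 2, and relations of Pla2g3 (0) were 1 in the second kind.

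With the replicate number as a block the counts were 1, 2 and 0, but Pla2g6 in Dox + ABT missed the threshold (p = 0.0105) and Ptgs2 passed (0.36, p = 0.00624). The same-numbered rats share only a number (correlation of deviations -0.189 to 0.299, median -0.0128). The block turned Ptgs2 in Dox against Veh to -0.00371 and Ptgds in Dox against Dox + ABT to 0.64.

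Signs also changed in Dox against Veh for Pla2g12a (-0.030 with array weights, -0.18 in the second kind, -0.033 without Dox 1 and Dox 2, -0.024 with the kind added), Pla2g15 (0.00925 with array weights, 0.028 in the first kind), Pla2g6 (0.022 in the first kind), Ptgds (-0.48, -0.46 and -0.47 in the second kind, without Dox 1 and Dox 2, and with the kind added; -0.10 to 0.31 without single rats) and Ptges (-0.13, -0.17 and -0.18 likewise). In Dox + ABT against Veh they changed for Pla2g15 (-0.017 with the kind, -0.025 also without Dox 1 and Dox 2), Pla2g4a (0.052) and Pla2g12a (0.00183) in the first kind, and Ptgs1 (-0.00249 to 0.10 without single rats). In Dox against Dox + ABT they changed for Ptgds (0.024 with the kind, 0.46 in the first kind, -0.37 to 0.10 without single rats), Pla2g7 (0.044 without Dox 1 and Dox 2) and Ptgs2 (0.073 without them, 0.17 with the kind added). Relations with Pla2g3 changed for Pla2g4a (0.10 with group and kind means, 0.22 in the first kind, 0.21 in Dox alone), Pla2g7 (0.32 in the first kind, 0.48 in Dox alone), Ptgs1 (-0.040 in the second kind, -0.016 without the 2 farthest rats) and Ptgs2 (0.27 in the second kind). Ptges and Pla2g3 rest on few reads outside Dox 1 and Dox 2, and small differences in them were not detectable.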
